A study of Mus musculus with 4 samples.

Results

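Hectd4, which encodes a large HECT-type ubiquitin ligase, was examined with its surroundings on chromosome 5 (121100001 to 121400000, GRCm38). In this 300 kb locus, initiation of transcription was located by PRO-seq in liver and yolk sac of mouse embryos. The locus was chosen by its number of initiation peaks in these same libraries, which was higher in liver, so every contrast between the tissues below is a description and was not tested. Hectd4 was 1 of 21951 annotated protein-coding genes. Its locus held 23 of the 61095 regions obtained by merging the peaks of all 4 libraries, and 13 of the 23 had their midpoint inside the gene.

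PRO-seq (precision nuclear run-on sequencing) extends the nascent RNA of RNA polymerases that are engaged on chromatin. The peaks are those of dREG, a classifier that finds sites of initiation at promoters and enhancers from such reads. There were 2 libraries per tissue, each from tissue of 6 pooled embryos at E14.5 (embryonic day). The dams were C57BL/6J, and the sires were of a mixed C57BL/6J and CAST/EiJ background and were picked for CAST/EiJ alleles at Dlk1/Gtl2 on chromosome 12. All groups share this cross, and the labels do not give the genotype at Hectd4. Both tissues are bulk samples of several cell types, so fewer active cells of a type and less transcription per cell cannot be told apart.

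The deposited liver lists held 24863 and 24333 peaks, and those of yolk sac 50525 and 43055. The number of reads behind them is not known. Promoter peaks at marker genes were examined as a check of the labels. Of 9 erythroid markers, a promoter peak was found at 9 and 9 in liver and at only 3 and 3 in yolk sac. Of 9 hepatocyte markers the numbers were 7 and 6 in liver and 7 and 7 in yolk sac. Of 7 yolk sac endoderm markers they were 5 and 3 in liver and 7 and 7 in yolk sac, and of 7 mesenchymal and vascular markers 5 and 6 against 7 and 7. Of 5 megakaryocyte and myeloid markers, 4 and 2 had one in liver against 4 and 3. The hepatocyte and yolk sac endoderm lists share Ttr, Afp, Apob and Hnf4a, so they are not independent checks. The erythroid promoter calls thus moved with the liver peaks described below, and their part in them was not tested.

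HECT ligases take ubiquitin onto a cysteine of their catalytic domain before passing it to a substrate protein, and ubiquitin chains mark many proteins for degradation. At this stage the liver is the main site of red cell formation and also holds immature hepatocytes, whereas the yolk sac consists of an absorptive endoderm layer over mesoderm and vessels. Clusters of initiation regions within a gene are often enhancers, which may act on the host gene or on a gene at a distance.

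Hectd4 lies on the plus strand from 121220219 to 121368577 and is 148.4 kb long. Its principal transcript has 76 exons. Intron 1, from 121220658 to 121253860, is 33.2 kb long and is the longest intron of the transcript, and the next longest measured 7.2 kb. The 250 bases before the annotated start site are shown because all 4 libraries had a peak there. They come from the RefSeq table for GRCm38.p6, chr5:121219969-121220218, plus strand, 5′ to 3′. The capitals mark matches to a GATA motif (AGATAA or TGATAA or AGATAG or TGATAG) and to a KLF motif (CCNCNCCC), each searched on both strands.
Hectd4: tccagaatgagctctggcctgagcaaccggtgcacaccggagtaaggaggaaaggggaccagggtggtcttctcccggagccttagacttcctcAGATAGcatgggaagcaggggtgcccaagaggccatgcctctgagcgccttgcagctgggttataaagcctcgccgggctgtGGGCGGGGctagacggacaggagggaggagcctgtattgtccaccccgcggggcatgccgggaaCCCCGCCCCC

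The Hectd4 window had 1 GATA match, beginning at position -156 from the start site, and 3 KLF matches, beginning at -74, -10 and -8. Those at -10 and -8 overlap. Of 32851 RefSeq promoter windows of this length, 26.5% held the GATA motif and 45.9% the KLF motif. An E-box of the type CAGNTG began at -104 (present in 44.8% of windows), and the ETS motif GGAAGT on the minus strand at -164 (19.7%). No match was found in the window for the hepatic motifs of HNF4 (CAAAGTC, in 3.84% of windows), FOXA (TGTTTNC, 17.8%), HNF1 (GTTAAT, 6.43%) or CEBP (TTGCNNAA, 9.56%). The window had a GC content of 64.4%, against a median of 52.4% over all windows. Sequence of the intron 1 regions was not analysed here.

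Across the locus the liver lists held 18 and 19 peaks and the yolk sac lists 9 and 8. The means were 18.5 ± 0.707 and 8.5 ± 0.707 (SD, n = 2 libraries each). The values of the tissues did not overlap, but the locus was chosen by this count, so nothing is read from that. With only the higher-scoring 50% of each list, the difference of 10 peaks fell to 1.5. In the Hectd4 gene body there were 10 and 11 liver peaks but 4 in each yolk sac library. Peaks covered 19.1 and 17.2 kb of the locus in liver and 9.77 and 8.92 kb in yolk sac. This liver excess contrasts with the whole lists, in which yolk sac had more peaks.

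The position of the peaks within the locus differed by tissue. Upstream of the Hectd4 start, liver had 5 and 6 peaks, and yolk sac had 2 and 2. In intron 1 past the peak at the start site (121223453 to 121253860), each liver list had 8 peaks and each yolk sac list had 0. In the remaining 114.7 kb of the gene, from exon 2 onwards, liver had 1 and 1 peaks and yolk sac 3 and 3. Downstream of the gene both tissues had 3 and 2 peaks. The difference between the tissues was thus carried by intron 1 and the upstream side, and its sign was opposite in the rest of the gene.

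**Figure D1:**
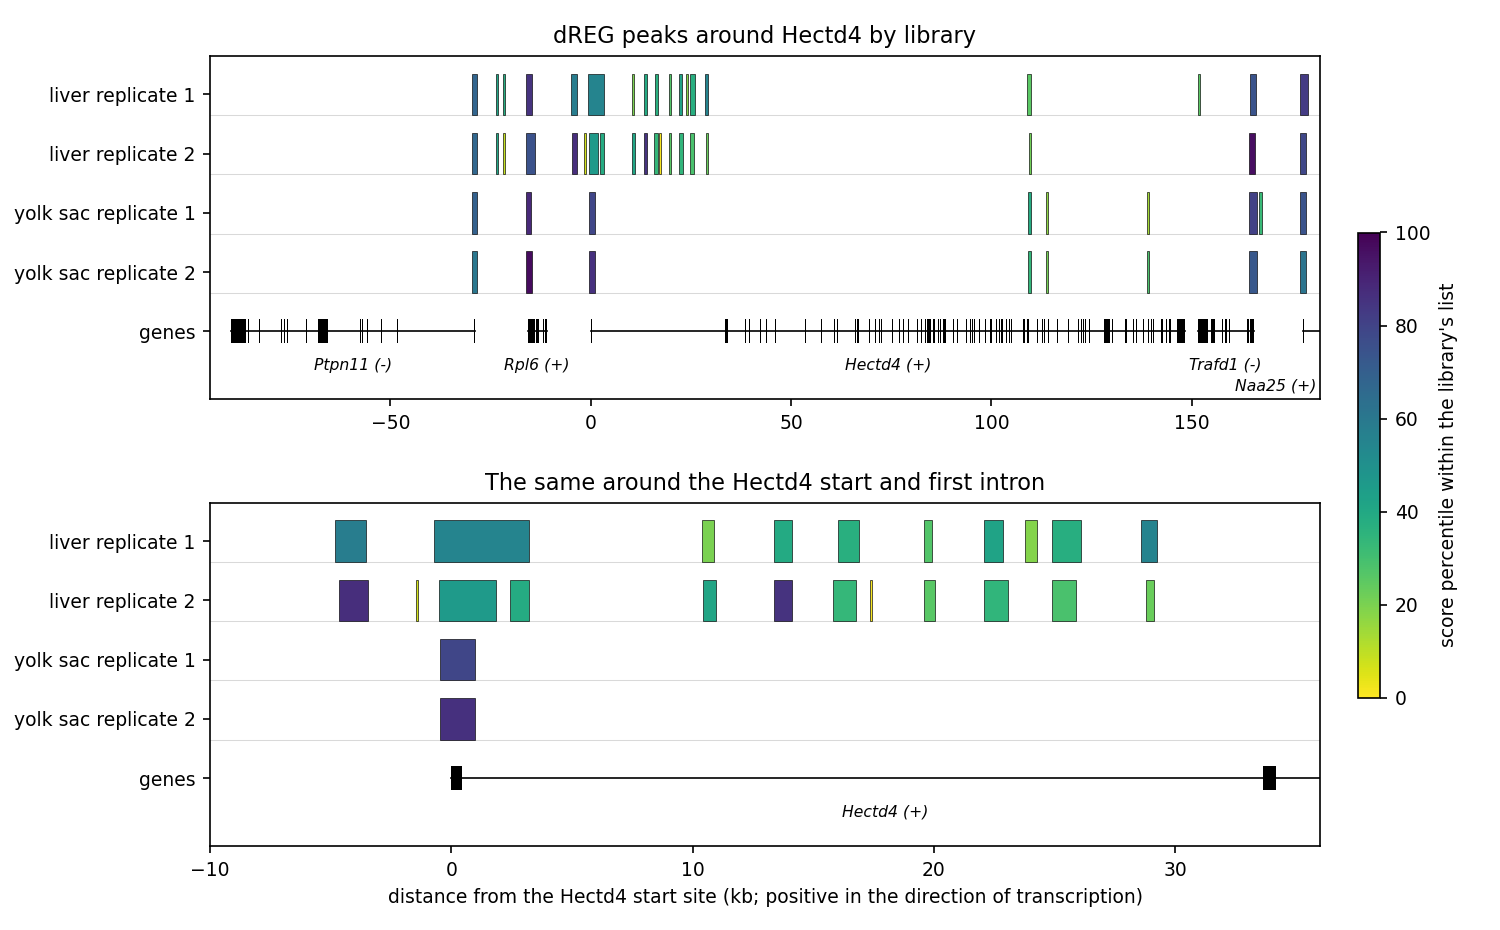
Peaks of each library around Hectd4, by distance from its start site (kb), as boxes coloured by the score percentile within the library's list. Gene bodies are lines with exons as bars and strand in brackets. Upper panel, the stretch from Ptpn11 to Naa25 that holds all peaks of the locus, with peaks narrower than 0.5 kb drawn at that width, and lower panel, the start and intron 1, with a smallest width of 0.1 kb. The liver lists have 8 and 8 peaks in intron 1 past the start region, where the yolk sac lists have none.

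Of the 23 regions, 10 were liver-only, meaning that both liver lists and no yolk sac list had a peak there. With the higher-scoring 50% of each list, 1 liver-only region was left. Over the whole genome 6.62% of regions were liver-only. A further 2 regions were yolk-sac-only (33.0% of all regions) and 6 were called in all 4 libraries (25.7% of all regions). The other 5 were called in 1 library. Since the locus was chosen for its liver peaks, nothing is read from these shares. All 7 of the liver-only regions within Hectd4 lay in intron 1, and 3 lay upstream of the gene.

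The intron 1 regions began, by midpoint, 10.7 kb after the start site. The first, at 121230601 to 121231202, was 502 and 552 bp wide in the liver lists. Its score percentiles were 20.0 and 41.2, where the percentile is the share of a list's peaks with that score or a lower one. The second, at 121233601 to 121234352, had the same edges in both libraries and was 752 bp wide. Its percentiles were 39.2 and 85.4, a gap of 46.1 that was the widest between replicates at any liver-only region of the locus. The third, at 121236051 to 121237102, ranked at 37.0 and 33.6.

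The fourth intron 1 region, at 121239801 to 121240252, was the narrowest of the 7 by its merged extent, with peaks of 352 and 452 bp at the 27.2 and 25.8 percentiles. The fifth, at 121242301 to 121243302, ranked at 42.2 and 34.5. The sixth, at 121245101 to 121246302, had peaks of 1202 and 1002 bp, the former the widest of the 7 in replicate 1, at percentiles 37.5 and 28.6. The last, at 121248801 to 121249452, ranked at 55.4 and 22.9. None of the 7 was in the upper 50% of both lists by score. Between them, 1 peak of liver replicate 2 (121237551 to 121237652, 102 bp) and 1 of liver replicate 1 (121244001 to 121244502, 502 bp) had no counterpart in the other libraries.

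Liver peaks that only 1 library called lay between the 7 regions, at 17.4 and 24 kb from the start site. Within either liver list alone the spacing was therefore less even. With those peaks left out, the midpoints of the 7 regions were evenly placed. Neighbours were 3075, 2600, 3450, 2775, 2900 and 3425 bp apart, with a mean of 3037.5 ± 347 bp (SD over 6 distances) and a coefficient of variation (SD divided by mean) of 0.114. The median distance between neighbouring liver-only regions over the genome was 128725 bp. Liver-only regions were joined into chains where at most 5 kb lay between neighbours, a limit set after the values were seen. The 7 regions then formed 1 chain of 18.9 kb, and no other of the 3542 chains had as many. The locus was chosen for its liver peaks, so nothing is read from this rank or the short distances.

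Chains of 5 or more regions numbered 4, including that in Hectd4. The others, named after their values were seen, had 5 regions each and lay at the alpha-globin genes Hba-a1 and Hba-a2 (chromosome 11, 32280601 to 32299002) and outside coding genes on chromosome 18 (62162751 to 62177302) and chromosome 7 (90074051 to 90084552). Their coefficients of variation were 0.330, 0.387 and 0.242. With gaps of up to 12.5 kb, 2 other chains also had 7 regions, on chromosome 10 (43592701 to 43631802) and within Tbxas1, the thromboxane synthase gene, on chromosome 6 (38891951 to 38936402). Their coefficients were 0.355 and 0.391. With gaps of at most 2.5 kb the Hectd4 chain was cut to 4 regions, and 1 other chain, of 5 regions, was longer. In the higher-scoring 50% of each list no liver-only region of Hectd4 was left.

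The 3 liver-only regions upstream of Hectd4 lay on both sides of Rpl6, a gene for a protein of the large ribosomal subunit. The nearest to Hectd4, at 121215401 to 121216752, had its midpoint 4.1 kb before the start site. It had the highest ranks of all 10, at the 57.9 and 87.0 percentiles, and peaks of 1302 and 1202 bp. The pair between Ptpn11 and Rpl6, at 121196551 to 121197152 and at 121198351 to 121198752, ranked at 41.2 and 40.5, and at 37.9 and 8.77. All 10 liver-only regions were farther than 500 bp from any annotated start site.

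As a set, the 10 regions resembled the liver-only regions of the genome in rank and width. Their median percentile was 38.6 in liver replicate 1 and 34.1 in replicate 2, against 42.7 and 37.3 over all 4047. Median peak widths were 702 and 652 bp, against 802 and 702 bp. The edges of a region differed between the liver libraries by a median of 50 bp at the start and 100 bp at the end, and by at most 200 bp, where the genome-wide medians were 100 and 100 bp. The percentile itself varied more, with a median gap of 15.0 between replicates, against 12.1 over the genome.

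**Figure D2:**
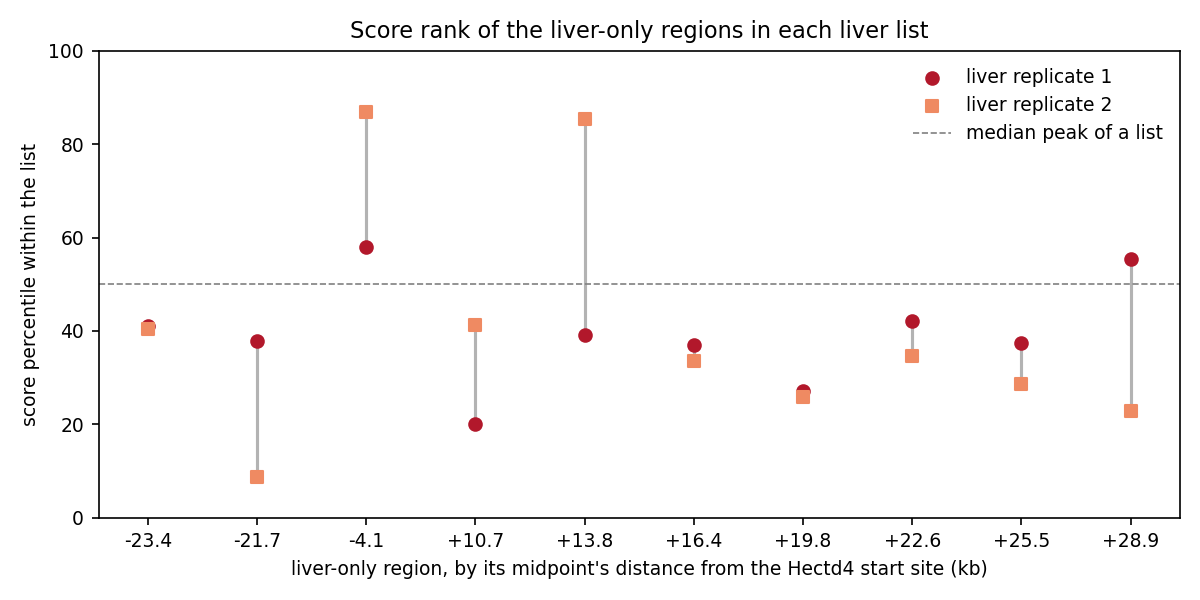
Score percentile of each liver-only region of the locus in both liver lists (circles, replicate 1; squares, replicate 2), ordered by distance from the Hectd4 start site (kb). Grey lines join the replicates, and the dashed line is the median peak of a list. Only the region 4.1 kb upstream lies above the median in both libraries, at 57.9 and 87.0.

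Hectd4 had 1 peak at its start site in all 4 libraries. Its 6 other annotated start sites, all downstream of intron 1, had none within 500 bp. The peak spanned 121219501 to 121223452 in liver replicate 1 and was 3952 bp wide. In liver replicate 2 it was 2352 bp wide, and a second peak of 802 bp (121222651 to 121223452) followed it to the same end. In both yolk sac libraries it spanned 121219751 to 121221202 and was 1452 bp wide. The upstream edges were thus within 250 bp of each other, and the liver peaks reached farther into intron 1. The liver peak was at least as wide as 99.1% of its list in replicate 1 and 92.9% in replicate 2. For the yolk sac libraries the shares were 75.3% and 77.8%.

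Over the 11805 protein-coding genes with a promoter peak in all 4 libraries (53.8% of all), the median ratio of liver to yolk sac promoter width was 0.947, and at Hectd4 it was 2.17. A ratio at least as high was found at 237 of these genes, or 2.01%. Both liver peaks were wider than both yolk sac peaks at 20.1% of the genes. The score ranks went the other way. The Hectd4 promoter peak had percentiles of 55.1 and 45.9 in liver but 79.2 and 86.2 in yolk sac. Ranks in lists of unequal length do not show a change in level.

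The neighbouring starts were compared in the same way. Of the 10 genes with a start site in the locus, 7 had a promoter peak in all 4 libraries, among them the 5 coding genes. Among all protein-coding genes, 53.8% had one in all 4. Gm26205 and Gm42918, also among the 7, were called by the peaks of Rpl6 and Trafd1. Ptpn11 encodes the tyrosine phosphatase SHP2, and its promoter peak was 1452 and 1402 bp wide in liver and 1402 and 1302 bp in yolk sac. At Rpl6 the widths were 1302 and 2002 bp in liver and 1202 and 1252 bp in yolk sac. At Trafd1, which encodes a zinc finger protein that dampens innate immune signalling, they were 1452 and 1352 bp in liver and 2052 and 2002 bp in yolk sac. Naa25, an auxiliary subunit of an N-terminal acetyltransferase, had widths of 2052 and 1602 bp against 1552 and 1252 bp. Liver peaks were thus wider without overlap at Hectd4. The same held narrowly at Rpl6 (nearest values 1302 against 1252 bp) and Naa25 (1602 against 1552 bp). At Ptpn11 the nearest values were equal, and at Trafd1 the liver peaks were narrower. Among genes with a promoter peak in all 4 libraries, both liver peaks were wider than both yolk sac peaks at 20.1%.

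**Figure D3:**
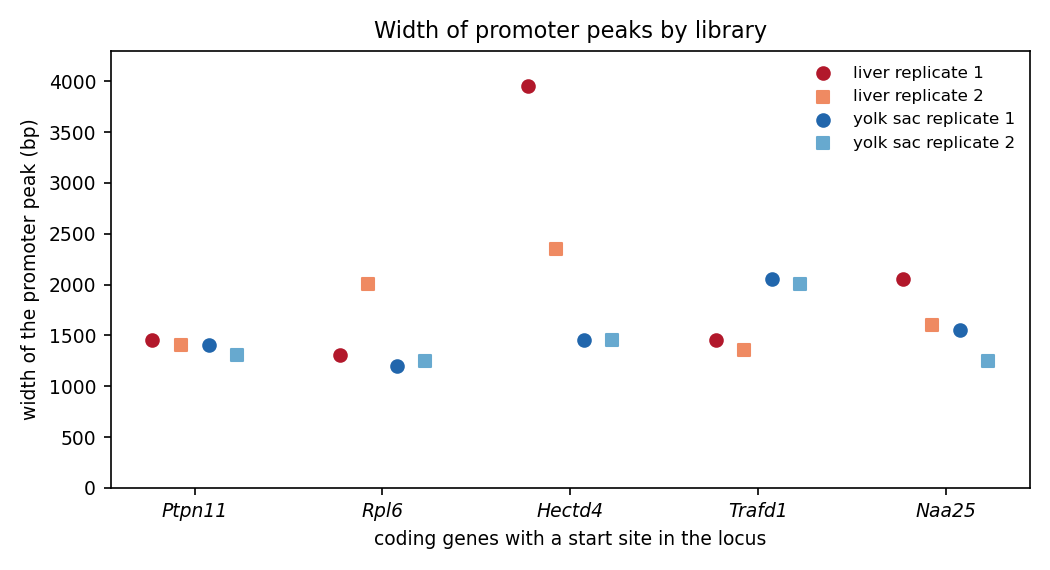
Width (bp) of the peak within 500 bp of a start site for the 5 coding genes of the locus, by library (red, liver; blue, yolk sac; circles, replicate 1; squares, replicate 2). The Hectd4 peak is 3952 and 2352 bp wide in liver and 1452 bp in both yolk sac libraries.

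The remaining genes with a start in the locus were short or noncoding models. Gm26205, a small nucleolar RNA gene within Rpl6, and the antisense gene Gm42918 shared the peaks of Rpl6 and Trafd1, and their own initiation cannot be told apart from these. The antisense gene Gm42917 was within 500 bp of the Trafd1 peak in yolk sac replicate 1 only, and Gm42930 and Gm24671 had no peak. Naa25 was the last gene inside the edge of the locus. In the next 100 kb beyond it liver had 1 and 3 peaks and yolk sac had 3 and 3, and the 100 kb before the locus held none in any library. The nearest coding start on that side, of Rph3a, had no peak, and that on the other side, of Tmem116, had one in all 4 libraries.

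The sequence before the Ptpn11 start (chr5:121191398-121191647, minus strand) is shown because, with Hectd4, it was the other matched promoter of the locus that held a GATA match. The RefSeq table matched 4 of the 10 genes: Hectd4, Ptpn11, Rpl6 and Trafd1. The capitals mark the GATA match, beginning at -95, and 3 KLF matches, beginning at -40, -34 and -28, of which neighbours overlap. At Rpl6 and at both Trafd1 starts no GATA match was found. Of the hepatic motifs, that of HNF4 had 1 match at Rpl6, beginning at -187 (present in 3.84% of windows). No hepatic motif was matched at Ptpn11 or Trafd1.
Ptpn11: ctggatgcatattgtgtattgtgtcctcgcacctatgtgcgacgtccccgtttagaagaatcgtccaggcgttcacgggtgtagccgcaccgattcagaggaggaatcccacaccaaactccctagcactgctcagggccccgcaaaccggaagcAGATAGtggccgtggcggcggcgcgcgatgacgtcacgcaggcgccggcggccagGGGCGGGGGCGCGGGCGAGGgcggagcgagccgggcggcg

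From exon 2 to its end, Hectd4 held 3 regions. One, at 121329201 to 121330052, was called in all 4 libraries, with peaks of 852 and 452 bp in liver and 652 and 702 bp in yolk sac. Its percentiles were 25.8 and 21.7 in liver but 38.8 and 34.1 for the yolk sac libraries. The other two were yolk-sac-only, at 121333901 to 121334402 (percentiles 17.0 and 20.9) and at 121359051 to 121359552 (13.5 and 28.5). Each of the 3 overlapped a coding exon of Hectd4. At the region from 121333901 only the peak of yolk sac replicate 2 reached the exon. The 9 regions of intron 1 past the start region overlapped no exon, which follows from their place in an intron. Over the genome, 20.9% of liver-only regions, 20.0% of yolk-sac-only regions and 29.5% of those in all 4 libraries that lay inside coding genes away from start sites overlapped an annotated exon.

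The exons are shown because they are a part of these regions whose sequence is at hand, from the GENCODE transcript (GRCm38, plus strand, 5′ to 3′), with the bases inside the region in capitals. Exon 49 (chr5:121329458-121329621) lies wholly in the region called in all 4 libraries, although the peak of liver replicate 2 covered only its last bases. Exon 53 (chr5:121334337-121334474) shares 66 bases with its region, all of them in the peak of yolk sac replicate 2. Exon 68 (chr5:121359297-121359443) lies wholly in the last region.
Exon 49: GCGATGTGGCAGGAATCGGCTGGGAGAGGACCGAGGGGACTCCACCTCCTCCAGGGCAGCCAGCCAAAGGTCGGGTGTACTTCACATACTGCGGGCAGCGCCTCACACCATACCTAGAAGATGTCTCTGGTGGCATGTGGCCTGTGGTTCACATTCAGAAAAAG
Exon 53: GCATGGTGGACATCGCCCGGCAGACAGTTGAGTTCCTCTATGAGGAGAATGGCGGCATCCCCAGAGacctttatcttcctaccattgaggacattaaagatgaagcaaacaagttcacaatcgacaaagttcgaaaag
Exon 68: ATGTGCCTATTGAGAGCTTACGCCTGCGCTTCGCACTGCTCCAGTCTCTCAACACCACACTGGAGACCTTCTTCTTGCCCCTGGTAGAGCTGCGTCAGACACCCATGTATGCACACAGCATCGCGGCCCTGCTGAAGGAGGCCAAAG

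At the locus, libraries of the same tissue shared more bases than libraries of different tissues. The Jaccard index, the bases shared by 2 lists divided by the bases covered by either, was 0.745 for the liver pair and 0.847 for the yolk sac pair. Comparing either liver list with either yolk sac list gave values between 0.359 and 0.371. The locus was chosen for its liver peaks, so nothing is read from these lower values. Of 18 peaks of liver replicate 1, 16 overlapped a peak of replicate 2, and 6 overlapped one in either yolk sac library. In yolk sac replicate 1, 8 of 9 peaks overlapped one of replicate 2, and all 8 of replicate 2 overlapped one of replicate 1. The peak without a counterpart, at 121387051 to 121387652, lay beside Trafd1.

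Widths and ranks within the locus also differed by tissue. The median width was 827 and 802 bp in liver, below the list medians of 1052 and 1002 bp. In yolk sac it was 1202 and 1252 bp, above the list medians of 902 and 852 bp. The difference of the means, liver minus yolk sac, was -412.5 bp, and it reversed to 37.5 bp among the upper 50% of each list by score. The median score percentile was 40.2 and 38.9 in liver and 69.2 and 61.0 in yolk sac. At gene starts lay 5 of the 9 and 5 of the 8 yolk sac peaks, and 5 in each liver list.

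Set against all protein-coding genes, Hectd4 was among those with the most liver-only regions in the gene body. The locus was chosen for its liver peaks, so nothing is read from this rank. No liver-only region of Hectd4 was left in the higher-scoring 50% of each list. At least 1 such region was found in 1807 of 21951 genes (8.23%), and 7 or more in 8 genes (0.0364%). Named after their values were seen, the others were Gm20388, Gm45062, Bcl11a, Fgfr2, Zeb2, Umad1 and Tbxas1. The models of Gm20388 and Fgfr2 were 4434.9 and 2960.9 kb long, and those of Gm45062 and Umad1 overlap each other. Bcl11a, a repressor of fetal globin genes, had 8 regions in 96.1 kb. Zeb2, a zinc finger repressor, had 7 in 133.8 kb, and Hectd4 had 4.72 per 100 kb. Of 2618 genes between 80 and 300 kb in length, 5 had 7 or more, and the median was 0.

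**Figure D4:**
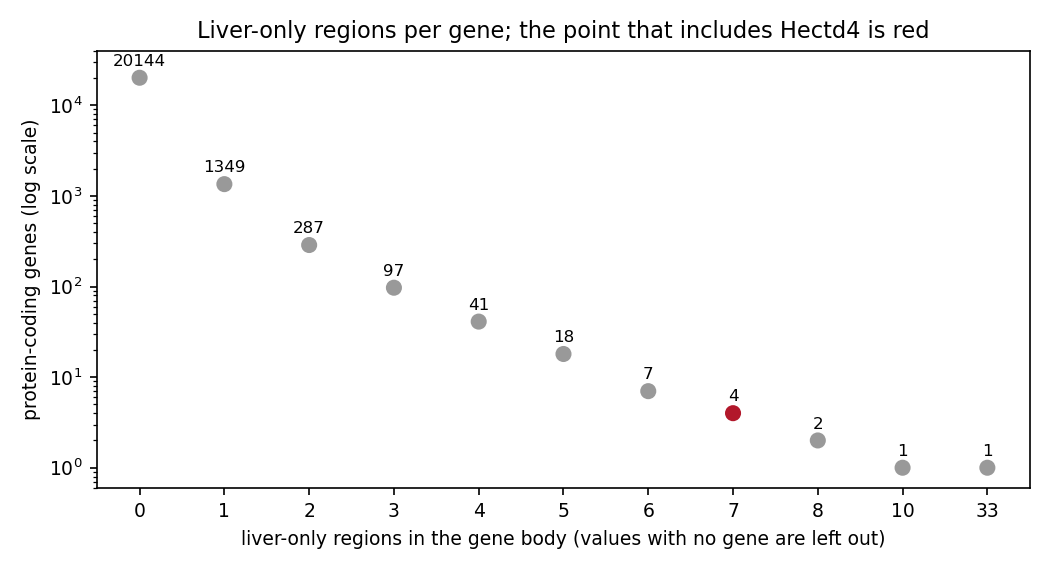
Number of protein-coding genes (log scale) by the number of liver-only regions in the gene body. Hectd4 is 1 of 4 genes with 7 such regions (red), and 20144 genes have none.

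Genes with liver-only as well as yolk-sac-only regions in their body, as in Hectd4, numbered 824 (3.75%), or 14.9% of those between 80 and 300 kb. The genes of that length whose peak numbers lay nearest to those of Hectd4 were found from the peaks per 100 kb of gene body in the 4 libraries. Hectd4 had 6.74 and 7.41 in liver but 2.70 in each yolk sac library. The medians of the length class were 0.893 and 0.919 for the liver libraries, against 1.95 and 1.57 for yolk sac.

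The nearest gene by Euclidean distance over the 4 values was Zeb2 (distance 0.644), with 6.73 and 7.48 peaks per 100 kb in liver and 2.24 and 2.24 in yolk sac. Psmd9, a chaperone of proteasome assembly, came next (0.759), with 7.43 and 7.43 against 2.48 and 2.48 and with 4 liver-only regions. Zfp652 followed at 1.75, Pip4k2a, a phosphoinositide kinase gene, at 1.81 and Usp7, a deubiquitinase gene, at 1.88. These 3 had 5, 6 and 6 liver-only regions. The start of each of these 5 genes had a peak in every library, as did 53.8% of all protein-coding genes. The 5 genes were picked for peak numbers like those of Hectd4, so nothing is read from their liver excess.

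Other HECT ligase genes had fewer liver-only regions than Hectd4. The Hectd4 locus was chosen for its liver peaks, so nothing is read from that difference. Of 26 listed members, 25 carried a peak at a start site in every library, and Hecw1 carried one in no library. Over all protein-coding genes the share with such a peak in every library was 53.8%. Liver-only regions lay in the body of 9 members, with 7 in Hectd4 and 10 in the 8 others together. At least 1 was found in 8.23% of all protein-coding genes and in 21.8% of those between 80 and 300 kb. With the higher-scoring 50% of each list, 5 members instead of 9 had such a region. The highest number outside Hectd4 was 2, at Hace1 and Herc4. The median over the family was 0, as in the length class.

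Body peaks were more numerous in both liver libraries than in either yolk sac library at 5 of the 26 members, and the reverse held at 5. Over all protein-coding genes, 5.20% had more in liver in this sense and 21.3% more in yolk sac, and between 80 and 300 kb the shares were 7.22% and 47.8%. No test of the family against these shares was made. The liver members besides Hectd4 included Herc4, with 3 and 3 peaks against 1 and 1, and Hace1, with 3 and 3 against 2 and 2. In the opposite direction, Nedd4l, a ligase that controls the surface level of sodium channels, had 3 and 3 liver peaks against 12 and 11 from yolk sac, with 8 yolk-sac-only regions. Wwp2 had 3 and 2 against 8 and 8, and Herc2 0 and 1 against 4 and 5.

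**Figure D5:**
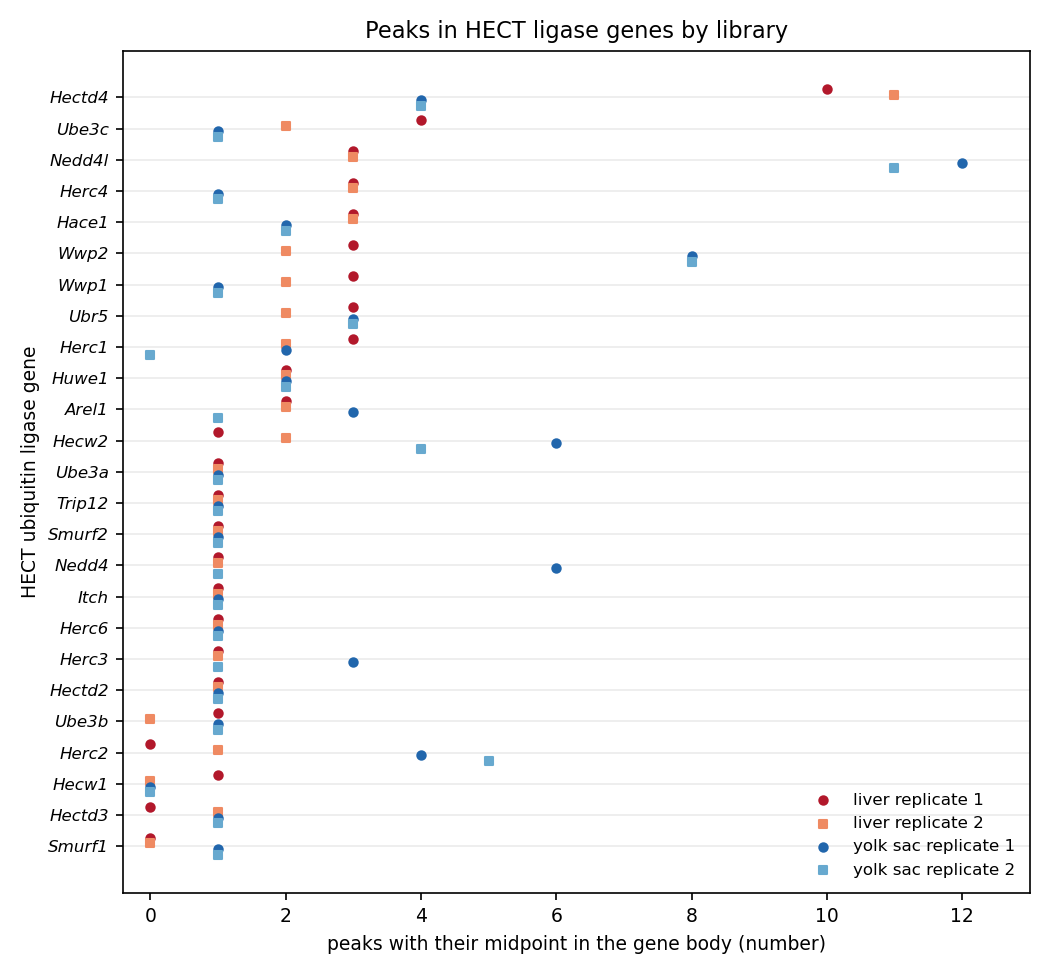
Peaks with their midpoint in the gene body for 25 of the 26 HECT ligase genes, by library (red, liver; blue, yolk sac; circles, replicate 1; squares, replicate 2), ordered by the liver mean. Points are offset vertically within a gene. Hectd4 has 10 and 11 liver peaks against 4 and 4, and Nedd4l has 3 and 3 against 12 and 11.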

How the data were processed

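The data are 4 peak lists, 1 per library, with replicates not pooled. Each gives positions and scores. The score is the authors' own, has no unit, and served here only for ranks and filters inside 1 list. Deposited scores began at 0.80 in all 4 lists. The submitters' processing notes name Bowtie2, bedtools and mm10 without roles. The dREG settings are not given in the sources used here. Read depth is unknown.

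Positions are 1-based. GENCODE M21 (GRCm38) supplied genes, start sites and exons. With Python 3.11.15 and numpy 2.4.6, peaks sharing at least 1 bp were merged into regions. Regions and peaks were assigned by their midpoint, and promoters as 500 bp either side of any start site. The functions were tested on simulated lists. No test between tissues was made, since the locus was chosen on the contrast and 2 libraries against 2 allow no exact permutation p below 0.333. Nothing in the labels says that replicates share embryos across tissues. Named genes were those with a start in the locus, the nearest coding starts beside it, the HECT list and the 5 nearest in peak density between 80 and 300 kb. In the family, 1 gene is counted but not reported here by itself. The locus, lists and motifs were chosen with earlier results of these data known. Alternatives were score filters, joining and overlap rules, other windows and leaving out each library.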

Additional observations from a re-analysis of the deposited data

How the results depend on the processing

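The peak difference in the locus was 10, and all values here are liver minus yolk sac. With the higher-scoring 50% of each list it fell to 1.5, with every list shortened to its top 24333 peaks it rose to 13.5, and with 100 kb added on each side it was 9. In the gene body the difference of 6.5 became 0.5 and 9.5 with the same score filters. Under the 50% filter the liver-only regions of the locus went from 10 to 1, their median lower percentile from 31.1 to 57.9, the HECT genes with such a region from 9 to 5, and the Hectd4 chain from 7 to 0. In each liver list, 2 of the 10 liver-only regions of the locus ranked at or above the list median. The part of rank in the other changes was not tested. The difference in median width, -412.5 bp, reversed to 37.5 bp with that filter and was -562.5 bp with lists of equal length. A chain gap of 2.5 kb left 4 regions.

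Leaving out 1 library gave locus differences of 9.5 to 10.5, gene body differences of 6 to 7, 10 to 13 liver-only regions, median lower percentiles of 31.1 to 37.7, width differences of -437.5 to -387.5 bp, 9 to 10 HECT genes and chains of 7 to 8. Joining peaks within 500 bp or asking for 50% overlap left the counts of liver-only regions, HECT genes and the chain unchanged. The number of locus genes with a promoter peak in every library was 7 and stayed between 6 and 8. The planned GATA count in the regions was not run, for want of a genome sequence here. No paired analysis was possible because the results come from no test, the locus having been chosen on the contrast itself.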
